A study of Mus musculus with 2 samples.

Results

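The integrin genes studied here were 10 genes of cell-surface adhesion receptors used by macrophages: Itgal, Itgam, Itgax, Itgad and Itgb2, Itgav and Itgb5, and Itga4, Itgb7 and Itgb1. Accessible regions were assigned to a gene when they overlapped its RefSeq span in mm10 or the 10 kb on either side. This gave 143 of the 128129 Tle4cKO peaks and 160 of the 128737 WT peaks. The regions come from ATAC-seq, in which the transposase Tn5 cuts and tags open chromatin, of macrophages from the colon, sorted by surface CD64, low Ly6C and no Siglec-F. The Tle4cKO library was made from male C57BL/6 mice of genotype Tle4f/f Lyz2-Cre, and the WT library from male C57BL/6 mice of genotype Lyz2-Cre, all aged 18.9 weeks. Both groups therefore carry the Cre recombinase, which is driven by the lysozyme 2 gene of myeloid cells, and the floxed Tle4 alleles are in the Tle4cKO mice alone. Cells of 2 mice were pooled for each library, and with 1 library per genotype no difference below has a replicate check or a test.

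Integrins are pairs of an alpha and a beta chain that bind matrix proteins, complement fragments or receptors on other cells, and that signal to the cytoskeleton. The alpha chains of Itgal (CD11a), Itgam (CD11b), Itgax (CD11c) and Itgad (CD11d) all pair with the beta2 chain of Itgb2 (CD18), which is made by leukocytes. The alphav chain of Itgav pairs with several beta chains, among them the beta5 chain of Itgb5, and binds RGD-containing ligands and bridging proteins on dying cells. The alpha4 chain of Itga4 pairs with beta7 (Itgb7), which binds MAdCAM-1 on gut vessels, or with beta1 (Itgb1), which binds VCAM-1 and fibronectin. CD11b and CD11c are in common use as surface markers of intestinal macrophages and dendritic cells. Tle4 encodes a corepressor of the Groucho family, which binds no DNA itself and is brought to it by factors such as RUNX and TCF/LEF proteins.

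The promoters of 7 of the 10 genes were found in the RefSeq promoter table (GRCm38.p6, the assembly of mm10), which spans 250 bases before to 50 after the annotated start. Peaks of both lists covered the annotated start of all 7. The promoters of 4 genes are shown, as a tandem pair of myeloid alpha chain genes (Itgam and Itgax), a lymphoid and myeloid alpha chain gene (Itga4) and a broadly expressed beta chain gene (Itgb1). In the sequences capitals mark matches to the 10 motifs named after the sequences, on either strand.
Itgam, chr7:128062390-128062689, plus strand: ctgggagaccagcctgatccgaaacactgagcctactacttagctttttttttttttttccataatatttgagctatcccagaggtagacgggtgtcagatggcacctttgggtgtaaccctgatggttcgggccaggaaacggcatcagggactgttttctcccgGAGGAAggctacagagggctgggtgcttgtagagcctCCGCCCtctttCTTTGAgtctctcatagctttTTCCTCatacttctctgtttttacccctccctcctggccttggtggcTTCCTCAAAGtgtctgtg
Itgax, chr7:128129300-128129599, plus strand: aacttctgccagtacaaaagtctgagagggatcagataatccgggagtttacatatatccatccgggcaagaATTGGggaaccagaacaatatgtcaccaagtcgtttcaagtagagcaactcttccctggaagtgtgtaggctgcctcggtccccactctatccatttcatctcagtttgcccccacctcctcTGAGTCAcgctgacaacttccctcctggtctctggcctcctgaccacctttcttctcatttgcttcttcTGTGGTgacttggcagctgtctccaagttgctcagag
Itga4, chr2:79255176-79255475, plus strand: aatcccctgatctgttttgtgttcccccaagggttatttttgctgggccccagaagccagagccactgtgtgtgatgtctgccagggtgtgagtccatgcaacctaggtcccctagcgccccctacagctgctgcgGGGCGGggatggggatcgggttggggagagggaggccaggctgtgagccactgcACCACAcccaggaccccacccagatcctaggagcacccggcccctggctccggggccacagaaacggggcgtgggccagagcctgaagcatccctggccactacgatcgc
Itgb1, chr8:128685404-128685703, plus strand: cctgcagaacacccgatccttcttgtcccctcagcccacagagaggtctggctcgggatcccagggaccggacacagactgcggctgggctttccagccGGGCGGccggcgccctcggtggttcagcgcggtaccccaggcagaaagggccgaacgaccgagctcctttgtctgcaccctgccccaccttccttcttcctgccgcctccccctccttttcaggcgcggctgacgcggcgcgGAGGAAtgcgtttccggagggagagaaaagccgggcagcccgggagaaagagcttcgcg

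The motifs searched on both strands were GAGGAAGT (PU.1), the shorter GAGGAA of ETS factors that lies within it, TGTGGT (RUNX), TGANTCA (AP-1), TTGCNNAA (C/EBP), CTTTGA (TCF/LEF), CACGTG (E-box), GGGCGG (SP/KLF), CCAAT and TATAAA. The GAGGAA letters were in 4 of the 7 promoters (Itgam, Itgav, Itgb7 and Itgb1), against 27.4% of 21262 promoters of protein-coding genes. Itgam held 3 such matches, starting at -84, -15 and 32 relative to the gene start, and the last of them shares bases with a CTTTGA match. The longer GAGGAAGT was in Itgav and Itgb7, against 3.13% of all promoters. TGTGGT, the RUNX letters, was in Itgax and Itga4, against 15.0% of promoters, and CTTTGA was in Itgam, against 14.4%. GGGCGG was in 5 of the 7 (Itgam, Itgav, Itgb5, Itga4 and Itgb1), against 46.2%. Itgax held the single TGANTCA match of the 7 (6.99% of promoters) and the single CCAAT match (38.2%). TTGCNNAA, CACGTG and TATAAA were in 0 of the 7, against 10.2%, 7.84% and 12.6% of promoters. The promoters differed in base composition, with a GC content of 50.3% in Itgam and 50.0% in Itgax, 56.3% in Itgb7, 64.3% in Itga4, 65.7% in Itgb5 and 67.3% in both Itgav and Itgb1, where the median of all promoters was 56.3%. The ratio of observed to expected CpG was 0.275 in Itgax, 0.316 in Itgam, 0.216 in Itgb7 and 0.322 in Itga4, and 0.619 in Itgb5, 0.708 in Itgav and 0.798 in Itgb1, against a median of 0.567.

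Each deposited peak has a width, a summit and a pileup, the height of stacked fragments at the summit. Its median over all peaks was 20 in Tle4cKO and 28 in WT, and the sources used here give neither read totals nor a scaling between the libraries. Peak pairs, each other's highest overlapping peak, therefore give a relative log2 ratio, the log2 of Tle4cKO over WT pileup minus the median of all pairs of like summed pileup. At Tle4 itself (same 10 kb flanks) 14 peaks were listed in Tle4cKO and 22 in WT, with 3 Tle4cKO-only and 12 WT-only. Which part of the gene is deleted is not stated in the labels, so these counts do not check the deletion. A gene-end peak, within 1000 bp of an annotated gene end, was found at 11 of 12 macrophage marker genes in Tle4cKO and 12 of 12 in WT. Cd163 lacked one in Tle4cKO and had one of pileup 8 in WT. Of 43 marker genes of 10 other cell types, 29 had such a peak in Tle4cKO and 32 in WT, where 65.3% of all protein-coding genes had one in Tle4cKO and 66.2% in WT. Their median pileup, with genes without a peak at 0, was 20 in Tle4cKO and 35 in WT, against 98.5 and 130.5 for the macrophage markers. Dendritic cell, B cell and fibroblast markers all had one in both lists. Pileups were 52 to 155 in Tle4cKO and 58 to 182 in WT for dendritic cell markers. For B cell markers they were 12 to 71 in Tle4cKO and 20 to 153 in WT, and for fibroblast markers 10 to 54 and 10 to 81. Itgax is also used by dendritic cells and Itgb7 by lymphocytes, and what other cells contributed to the peaks below was not tested.

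The integrin genes were open in both genotypes, with fewer peaks listed in Tle4cKO than in WT at 8 of the 10 genes. The share of all protein-coding genes with fewer peaks in Tle4cKO was not worked out, so this count has no background. Itgam had 12 peaks in each list, and Itgav had 36 in Tle4cKO and 33 in WT. Each listed peak was counted, also where several peaks of 1 list overlapped 1 peak of the other. Such cases occurred in Tle4cKO at Itgam and Itgav, among others, and in WT at Itgb2 and Itgb1. A higher count is therefore not always a higher number of open sites. Of the Itgav peaks, 8 were Tle4cKO-only and 9 WT-only. At Itga4 7 peaks were listed in Tle4cKO and 12 in WT, at Itgb7 10 and 14, and at Itgb2 13 and 17. The remaining genes differed by at most 2 peaks, with 5 in Tle4cKO and 6 in WT at Itgax, 5 and 7 at Itgal, 11 and 12 at Itgad, 30 and 32 at Itgb5, and 15 and 17 at Itgb1. Relative to length, the peaks were densest at Itgav in Tle4cKO, with 3.44 per 10 kb of gene and flanks, and at Itgb7 in WT, with 3.74. Itga4 was the sparsest in Tle4cKO, with 0.717 per 10 kb, and Itgal in WT, with 1.19. The medians over 21883 protein-coding genes were 0.841 in Tle4cKO and 0.868 in WT.

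**Figure D1:**
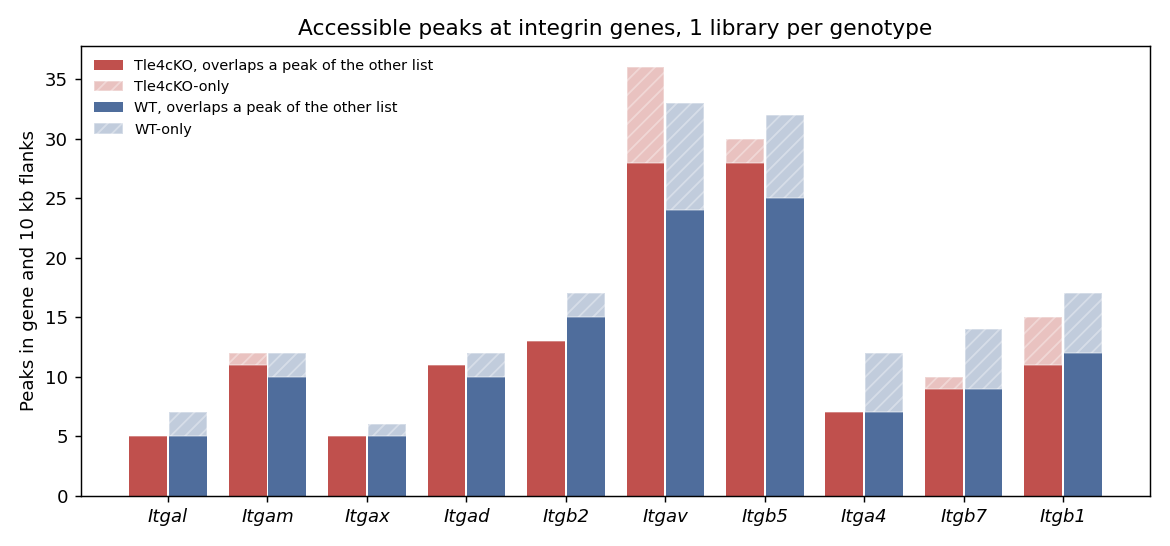
Number of peaks (y axis) within each integrin gene and 10 kb on either side (x axis) in the Tle4cKO list (red, left bars) and the WT list (blue, right bars), with hatched parts for peaks that overlap no peak of the other list. Itgav had the most peaks, 36 in Tle4cKO and 33 in WT, and the hatched part is as large as 9 peaks there in WT.

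Peaks found in 1 list were more frequent in WT. Of the 143 Tle4cKO peaks at the integrin genes, 16 were Tle4cKO-only (11.2%, exact 95% binomial interval 6.53% to 17.5%), against 23.5% of all Tle4cKO peaks. Of the 160 WT peaks, 39 were WT-only (24.4%, 17.9% to 31.8%), against 27.1% of all WT peaks. Weak peaks are more often in 1 list, and the median pileup at the integrin genes was 24 in Tle4cKO and 35.5 in WT, above that of the lists. When all peaks were weighted to the integrin genes' distribution over 4 classes of pileup, the shares were 16.0% in Tle4cKO and 24.6% in WT, and both lie within the intervals. The classes differed in direction, in the same way in both lists. Shares were below those of all peaks in the lower classes and above them in the higher. Of the weakest Tle4cKO peaks, with a pileup of 7 to 10, 2 of 14 were Tle4cKO-only (14.3%, 1.78% to 42.8%), against 74.95% of all such peaks. Of the weakest WT peaks, with 7 to 13, 21 of 35 were WT-only (60.0%, 42.1% to 76.1%), against 74.3%. Of the Tle4cKO peaks with a pileup of 20 to 46, 4 of 35 were Tle4cKO-only (11.4%, 3.20% to 26.7%), against 3.22%. Of the WT peaks with a pileup of 28 to 66, 8 of 38 were WT-only (21.1%, 9.55% to 37.3%), against 7.435% of all. Such intervals cover counting error only. By group, the 5 beta2 genes (Itgb2 and its alpha chains) had 1 of 45 peaks in Tle4cKO alone (2.22%) and 8 of 52 in WT alone (15.4%). The counts were 10 of 66 (15.2%) and 16 of 65 (24.6%) at Itgav and Itgb5. At Itga4, Itgb7 and Itgb1 they were 5 of 32 (15.6%) and 15 of 43 (34.9%). At no gene were there more Tle4cKO-only than WT-only peaks, and at Itgam, Itgax, Itgav and Itgb1 the difference was 1 peak. The share of all protein-coding genes for which this holds was not worked out. Over the whole lists 30079 peaks were Tle4cKO-only and 34872 WT-only. Of 17 other integrin genes, 4 had more Tle4cKO-only and 3 more WT-only peaks, and of the 12 macrophage markers 3 and 5. Among strong peaks, those with a pileup of at least 47 in Tle4cKO and 67 in WT, 1 of 51 Tle4cKO peaks was Tle4cKO-only, against 0.313% of all such peaks, and 2 of 52 WT peaks were WT-only, against 0.518%. A peak in 1 list was not called in the other, which does not give the pileup of the other library at that place.

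The 7 annotated gene starts were open in both genotypes, as was the end with the lower coordinate at Itgal and Itgb2. Peaks within 1000 bp of the annotated start, or of a gene end for Itgal, Itgad and Itgb2, whose starts are not in the promoter table, were found at 9 genes in Tle4cKO and at 10 in WT. Itgad was the gene without one in Tle4cKO. This difference depends on the limit, with 9 genes in both lists within 250 bp and 10 in both within 2500 bp. Among protein-coding genes, 63.9% of annotated starts in Tle4cKO and 64.4% in WT had a peak within 1000 bp, and 65.3% and 66.2% of genes had one at a gene end. The highest was that of Itgb7, with a pileup of 162 in Tle4cKO and 207 in WT, in which the summits lay 998 and 993 bp past the annotated start. Itgav (146 in Tle4cKO and 173 in WT), Itga4 (142 and 175), Itgax (142 and 177), Itgb1 (124 and 155) and Itgb2 (115 and 151) followed. Itgam had 104 in Tle4cKO and 138 in WT, Itgb5 89 and 107, and Itgal 80 and 120. All 9 of these peaks covered the start or the end with the lower coordinate, in both lists, and were strong in both. Their summits were at the same base in both libraries at Itga4, at -425 bp from the start, and 3 bp apart at Itgb5. At Itgb1 the Tle4cKO summit lay at -29 bp from the start and the WT summit at 228 bp, and at Itgb2 the summits were 401 bp apart within a peak of 2309 bp in Tle4cKO and 2368 bp in WT.

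**Figure D2:**
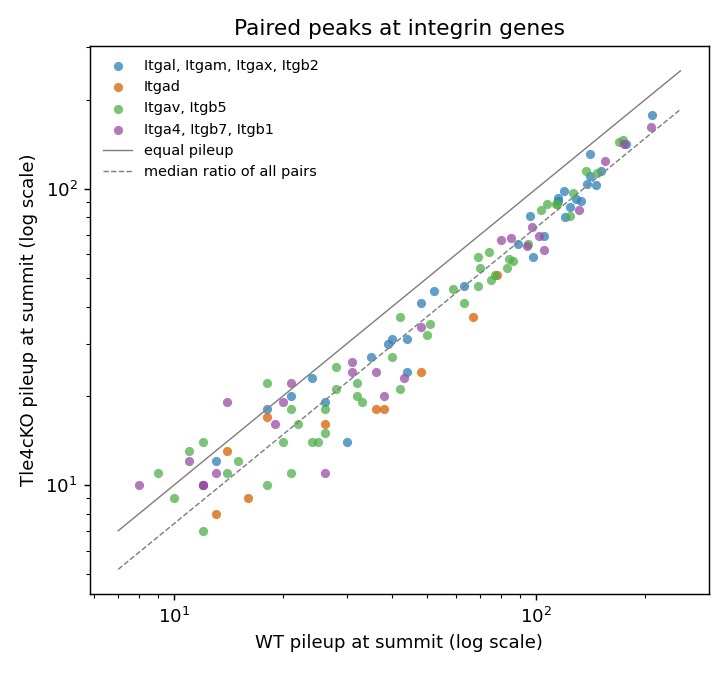
Pileup at the summit of each peak pair at the integrin genes, in WT (x axis) and Tle4cKO (y axis), both on log scales, coloured by gene group, with lines for equal pileup and for the median ratio of all pairs in the lists. The points run along the dashed line, and 109 of the 118 pairs had the higher pileup in WT, as did 90.8% of all pairs.

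Among paired peaks the integrin genes followed the whole lists. Their 118 pairs had a median Tle4cKO to WT ratio of 0.766, against 0.741 over all 92328 pairs, and their relative log2 ratios a median of 0.00 (95% order-statistic interval -0.07 to 0.06). The pileup was higher in Tle4cKO in 8 pairs, equal in 1 and higher in WT in 109, and over all pairs of the lists it was higher in WT in 90.8%. Relative to pairs of like pileup, 3 pairs were at least 1.5-fold higher in Tle4cKO, against 3.55% of all pairs, and 3 were at least 1.5-fold lower, against 3.82%, each 2.54% of the members' pairs. All 6 were weak, with pileups of 7 to 22 in Tle4cKO and 12 to 26 in WT. The exact counting interval of the ratio lay above that of pairs of like pileup in 0 of the 118, against 0.683% of all pairs, and below it in 0, against 0.615%.

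**Figure D3:**
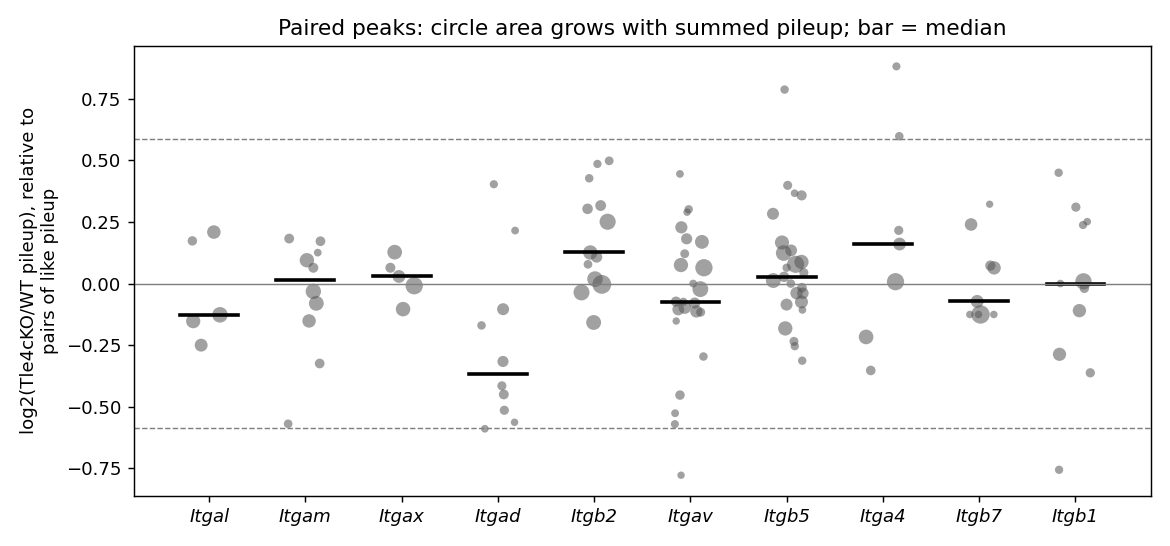
Relative log2 ratio of Tle4cKO over WT pileup (y axis) of every peak pair at each integrin gene (x axis), with circle area growing with the summed pileup, a bar at the median of the gene and dashed lines at 1.5-fold. Most medians lie close to 0, and that of Itgad is -0.37, with 8 of its 10 pairs below 0.

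Itgam and Itgax lie in tandem on chromosome 7, with Itgad after them, and the strong peaks of the first 2 genes were in both lists. Itgam (128062640 to 128118491) had pileups of 104 in Tle4cKO and 138 in WT at its start. Further strong pairs lay before the start at 128058365 to 128059202, with 69 in Tle4cKO and 105 in WT, and inside the gene at 128065506 to 128066119, with 91 and 115, and at 128088905 to 128089966, with 92 and 129. The relative log2 ratios of these 4 pairs were between -0.15 and 0.09, close to the middle of all pairs. The 1 Tle4cKO-only peak of Itgam, at 128064284 to 128064552, had a pileup of 36 and lay 325 bp from a WT peak. Its WT-only peaks had pileups of 21 (128117473 to 128117950) and 41 (128127880 to 128128105), and the second lies in the flanks of both Itgam and Itgax. At Itgax (128129526 to 128150657) every peak inside the gene was in both lists. Its start peak, at 128128676 to 128129963 in Tle4cKO, had a pileup of 142 in Tle4cKO and 177 in WT, with the summit at -370 bp from the start in Tle4cKO and -356 bp in WT. Inside Itgax followed pairs with 87 in Tle4cKO and 124 in WT at 128133347 to 128134198, 98 and 119 at 128136817 to 128137762, and 65 and 89 at 128138218 to 128138886. The median relative log2 ratio was 0.02 over 10 pairs at Itgam and 0.03 over 5 pairs at Itgax, and the 2 genes share 1 of these pairs, in the flank between them.

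At Itgad (chromosome 7, 128173933 to 128205504) the paired peaks were lower in Tle4cKO relative to pairs of like pileup than at any other of the 10 genes. The pairs had pileups of 16, 9, 24, 37, 18, 17, 13, 8, 18 and 51 in Tle4cKO, and of 26, 16, 48, 67, 36, 18, 14, 13, 38 and 78 in WT, in order of position. All 10 were lower in Tle4cKO, as most pairs of the lists are, and in 8 of the 10 the ratio was below that of pairs of like pileup. The median ratio was 0.589 and the median relative log2 ratio -0.37 (95% order-statistic interval -0.56 to 0.22, which includes 0). Over 6870 protein-coding genes with at least 5 pairs, the medians had a 5th percentile of -0.19 and a 95th percentile of 0.18, and 26 genes (0.378%) were at or below Itgad. Among 773 genes with 8 to 12 pairs and a median summed pileup within 1.5 times that of Itgad, 5 (0.647%) were. Itgad was singled out after its values were seen, as the lowest of 10, and none of its pairs had a counting interval that left out the ratio of pairs of like pileup. The strongest of its pairs, at 128209477 to 128210248 with 51 in Tle4cKO and 78 in WT, lay past the gene in the flank, and the next, inside the gene at 128179926 to 128181156, had 37 in Tle4cKO and 67 in WT, with summits 352 bp apart. Around its ends the peaks were weak. The WT peak nearest to the lower end had a pileup of 16 and its partner in Tle4cKO a pileup of 9, 1.5-fold lower relative to pairs of like pileup, and the WT peak nearest to the higher end, with 13, was WT-only. In the 100 kb past the window, 10 pairs had a median relative log2 ratio of -0.18, with 8 below 0, and with flanks of 50 kb the median at Itgad was -0.14. Itgad is a close paralog of Itgam and Itgax, and the sources used here do not say how reads that match several places were handled.

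**Figure D4:**
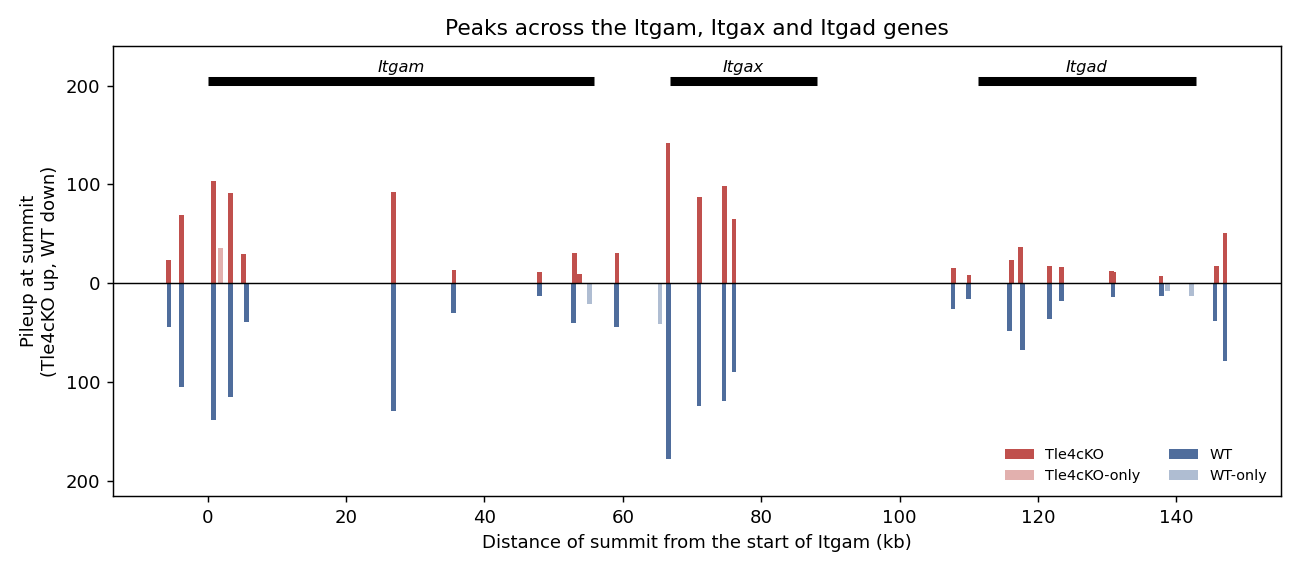
Pileup at the summit (y axis, Tle4cKO upwards in red, WT downwards in blue, pale bars for peaks in 1 list only) against the distance from the start of Itgam in kb (x axis), with gene spans as black bars. The Itgam and Itgax starts carry the highest bars, 104 and 142 in Tle4cKO and 138 and 177 in WT, while the bars at Itgad reach 51 in Tle4cKO and 78 in WT.

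Itgal (chromosome 7, 127296139 to 127335137), the alpha chain of the ICAM-1 receptor LFA-1, held 5 pairs. The peak over its lower end, at 127295956 to 127297692 in Tle4cKO, had 80 in Tle4cKO and 120 in WT, and pairs before it had 59 and 98 (127289251 to 127290741) and 81 and 96 (127287745 to 127288533). The highest in its window, with 103 in Tle4cKO and 146 in WT at 127345086 to 127346531, lies at the neighbouring gene Zfp768. Inside Itgal 1 further pair had 27 in Tle4cKO and 35 in WT. Its WT-only peaks had pileups of 8 and 14, and its median relative log2 ratio was -0.13, with 3 of 5 pairs below 0. It was 0.01 without the flanks, over 2 pairs, and 0.17 with flanks of 50 kb, so its direction is not fixed.

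Itgb2 (chromosome 10, 77530329 to 77565708), the beta chain shared by these 4 alpha chains, carried the highest pair of all members. That pair, inside the gene at 77536416 to 77537891, had a pileup of 178 in Tle4cKO and 209 in WT. Other strong pairs were those at 77550295 to 77551529, with 131 in Tle4cKO and 141 in WT, at 77540361 to 77541190, with 110 and 141, and at 77544747 to 77545435, with 91 and 133. In 10 of the 13 pairs the ratio was above that of pairs of like pileup, and the median relative log2 ratio was 0.13, within the central 90% of the 6870 genes. The gene held no Tle4cKO-only peak. Its higher WT-only peak, at 77526399 to 77527031, had a pileup of 70 and lay 2503 bp from the nearest Tle4cKO peak, between the gene and a pair at 77521878 to 77523896 with 93 in Tle4cKO and 115 in WT. The other, past the far end at 77574366 to 77574704, had 17.

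Itgav (chromosome 2, 83722303 to 83806917) had the most peaks and the most peaks found in 1 list, 8 in Tle4cKO and 9 in WT. Its start peak, at 83723899 to 83725906 in Tle4cKO, had 146 in Tle4cKO and 173 in WT. Strong pairs followed inside the first part of the gene, with 89 in Tle4cKO and 114 in WT at 83728225 to 83728859, 85 and 103 at 83742107 to 83743002, and 113 and 147 at 83744241 to 83745434. The highest WT-only peak, at 83729320 to 83729779, had a pileup of 62 and lay 461 bp from a Tle4cKO peak, and the other 8 had pileups of 9 to 24. Pileups of the Tle4cKO-only peaks ranged between 11 and 21, with the highest at 83809075 to 83809461 and 83814243 to 83814653, and the second of these lies over the neighbouring gene Fam171b. Its 24 pairs had a median relative log2 ratio of -0.07. One of them was more than 1.5-fold lower in Tle4cKO, at 83777051 to 83777284, with a pileup of 7 in Tle4cKO and 12 in WT.

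Itgb5 (chromosome 16, 33829665 to 33949338), the beta chain that with alphav takes part in the uptake of dying cells, had strong pairs near its start and in its far part. Between them lay 7 weaker pairs, with pileups of 11 to 35 in Tle4cKO and 14 to 51 in WT. The highest lay 62 kb inside the gene, at 33891281 to 33892492, with 144 in Tle4cKO and 169 in WT, above the start peak with 89 and 107. Others were at 33921420 to 33923433, with 115 in Tle4cKO and 137 in WT, at 33936834 to 33938630, with 97 and 126, and at 33836409 to 33837729, with 89 and 113. Of its 7 WT-only peaks, that at 33893548 to 33894171 had a pileup of 81, the highest of the WT-only peaks of all members, and lay 522 bp from a Tle4cKO peak. Beside it a WT-only peak with 47, at 33894382 to 33894581, lay 112 bp from the Tle4cKO-only peak at 33894693 to 33894934 with 40. Counting peaks within 500 bp as shared left 4 WT-only and 1 Tle4cKO-only peaks at Itgb5. The pair at 33843483 to 33844251 was 1.72-fold higher in Tle4cKO relative to pairs of like pileup, with 22 in Tle4cKO and 18 in WT (ratio 1.22, counting interval 0.626 to 2.42). The median relative log2 ratio over 25 pairs was 0.03.

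**Figure D5:**
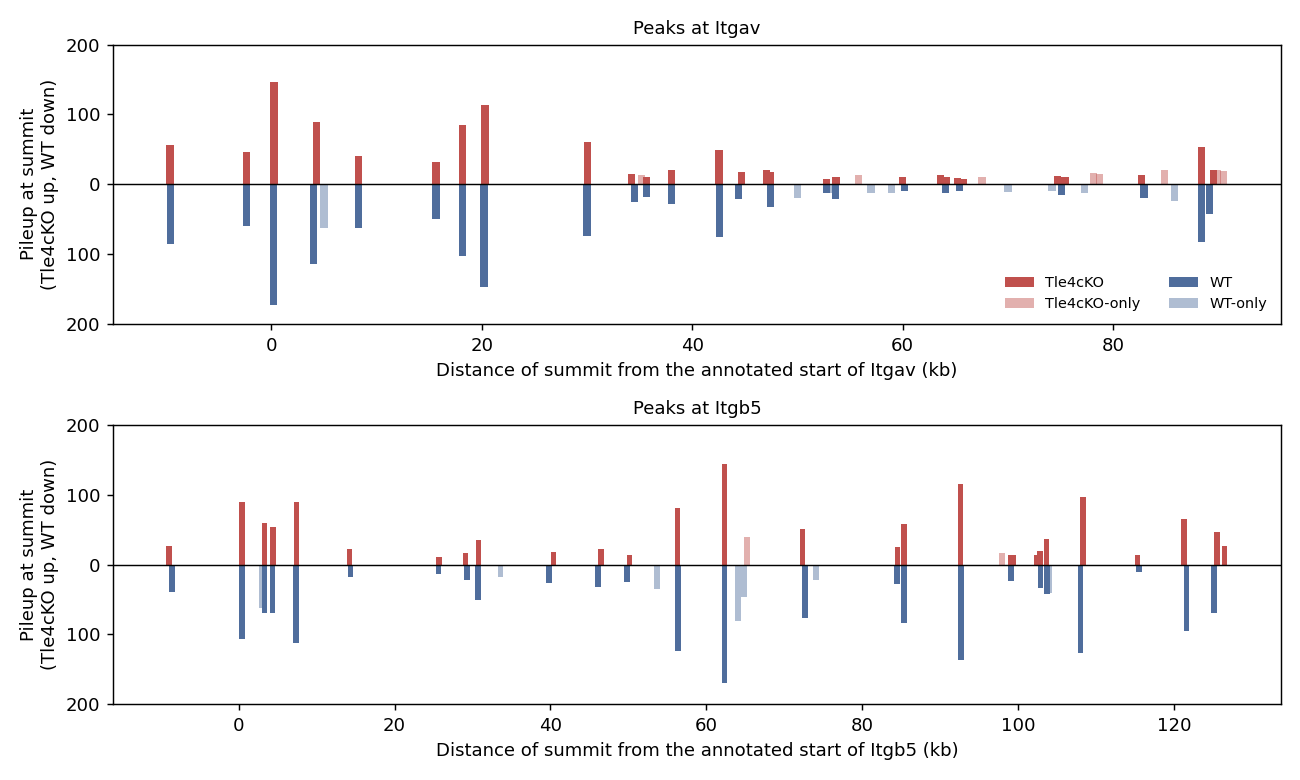
Pileup at the summit (y axis, Tle4cKO upwards in red, WT downwards in blue, pale bars for peaks in 1 list only) against the distance from the annotated start in kb (x axis) for Itgav (upper panel) and Itgb5 (lower panel). At Itgav peaks in 1 list only are low except a WT-only peak of 62, and at Itgb5 a WT-only peak of 81 stands beside the highest pair, with 144 in Tle4cKO and 169 in WT.

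Itga4 (chromosome 2, 79255426 to 79333114) had its strong peaks around the start. The start peak, at 79254526 to 79256410 in Tle4cKO, had 142 in Tle4cKO and 175 in WT, and was flanked by pairs with 85 in Tle4cKO and 131 in WT at 79253178 to 79253989 and with 68 and 85 at 79256842 to 79257072. Inside the gene the other 4 pairs had pileups of 19 to 24 in Tle4cKO and 14 to 43 in WT. Of these, 2 were at least 1.5-fold higher in Tle4cKO relative to pairs of like pileup: that at 79302237 to 79302921, with 19 in Tle4cKO and 14 in WT (1.84-fold, ratio 1.36, counting interval 0.645 to 2.92), and that at 79266809 to 79267213, with 22 and 21. The 5 WT-only peaks, 2 in the far part of the gene and 3 over the neighbouring Cerkl, had pileups of 8 to 10, close to the lowest value of 7 in the lists, and Itga4 held no Tle4cKO-only peak. The median relative log2 ratio over the 7 pairs was 0.16.

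Itgb7 (chromosome 15, 102215994 to 102233405, minus strand) encodes the gut-homing partner of alpha4. Its start in the promoter table, at 102231935, lies inside this RefSeq span, as does that of Itgav, at 83724397. Besides the start peak with 162 in Tle4cKO and 207 in WT, a pair before that start but within the span had 64 in Tle4cKO and 94 in WT (102232677 to 102233284). A pair further inside the gene had 67 and 80 (102224319 to 102225743). A further pair over the neighbouring gene Rarg, at 102243274 to 102244023, had 74 and 97. Peaks before the start were also found in 1 list, with 56 in WT at 102233861 to 102234328, 44 in WT at 102239119 to 102239700 and 50 in Tle4cKO at 102235518 to 102235819. The last 2 also lie over Rarg. The Tle4cKO peak of 50 was the 1 strong Tle4cKO-only peak of the 10 genes. Towards the end of Itgb7 the remaining 3 WT-only peaks had a pileup of 9 each. Over 9 pairs the median relative log2 ratio was -0.07.

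Itgb1 (chromosome 8, 128685654 to 128733579), the beta chain with the most alpha partners, had 124 in Tle4cKO and 155 in WT at its start, at 128685195 to 128686667 in Tle4cKO. The next highest pairs had 69 in Tle4cKO and 102 in WT inside the gene (128694326 to 128695067) and 62 and 105 before the start (128679828 to 128681120), and no other peak reached 40. Its 4 Tle4cKO-only peaks had pileups of 10 to 14 and its 5 WT-only peaks of 9 to 16. The pair at 128699640 to 128700156 had 11 in Tle4cKO and 26 in WT, 0.592-fold relative to pairs of like pileup, with a ratio of 0.423 (counting interval 0.189 to 0.886) against 0.714 for such pairs. The median relative log2 ratio over the 11 pairs was 0.00.

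Paired integrin peaks were narrower on the median than those of the lists, and their summits lay further apart. The order-statistic intervals of these medians all included the values of the lists. The median width in pairs was 679.5 bp in Tle4cKO (interval 626 to 750), against 728 bp over all pairs. In WT it was 722 bp (652 to 829), against 816 bp. The direction varied with the summed pileup. With at least 200 the integrin pairs were wider, with 1384 bp in Tle4cKO and 1470 bp in WT, against 1315 and 1411 bp. Under 40 they were wider in Tle4cKO (505 against 470 bp) and narrower in WT (549 against 585 bp). In the classes between, they were narrower in both lists. The widest of all integrin pairs were those over the lower end of Itgb2, with 2309 bp in Tle4cKO and 2368 bp in WT, and at 33884814 to 33887054 in Itgb5, with 2241 and 2324 bp. The median distance between the summits of a pair was 53.5 bp (interval 39 to 85), against 44 bp over all pairs. It was 180 bp for the 30 pairs with a summed pileup under 40, against 104 bp for all pairs of that height. For the 26 pairs with at least 200 it was 26.5 bp, against 16 bp. Of the classes between, the lower had 58 bp, against 51 bp, and the higher 23 bp, against 26 bp. Peaks found in 1 list were narrower than shared ones, with medians of 325.5 bp in Tle4cKO and 311 bp in WT, against 658 and 711 bp for shared peaks. The same held over all peaks, with 267 bp in Tle4cKO and 322 bp in WT, against 709 and 809 bp for shared peaks.

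Of the other integrin genes, 17 in all, 15 had a gene-end peak in Tle4cKO and 15 in WT. Of all protein-coding genes, 65.3% and 66.2% had one. Their median gene-end pileup was 33 in Tle4cKO and 50 in WT. Of their 245 Tle4cKO peaks, 49 were Tle4cKO-only (20%), against 23.5% of all Tle4cKO peaks. Of their 245 WT peaks, 54 were WT-only (22.04%), against 27.1% of all WT peaks. The 187 pairs of these genes had a median relative log2 ratio of -0.03. Of these pairs, 8 were at least 1.5-fold higher in Tle4cKO, against 3.55% of all pairs, and 11 at least 1.5-fold lower, against 3.82%. The genes with the largest difference in peaks found in 1 list were Itga8, with 0 Tle4cKO-only and 6 WT-only, Itgb8, with 0 and 5, and Itga7, with 4 and 1. Itgb8 encodes the partner with which alphav activates TGF-beta.

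Adaptors and activators that couple integrins to actin, 29 genes, had a gene-end peak at 25 in Tle4cKO and 26 in WT. Of all protein-coding genes, 65.3% had one in Tle4cKO and 66.2% in WT. They held 59 Tle4cKO-only peaks (15.1%) and 76 WT-only peaks (19.1%), and their 314 pairs had a median relative log2 ratio of 0.03. Lyn, a Src family kinase, held 4 Tle4cKO-only and 11 WT-only peaks, Vcl, which encodes vinculin, 4 and 10, Fermt3, the kindlin of blood cells, 0 and 4, and Cyth1, an exchange factor that binds beta2 tails, 2 and 6. Fermt3 kept its gene-end peak, with a pileup of 197 in Tle4cKO and 211 in WT. The 20 integrin ligand genes held 18 Tle4cKO-only peaks (15.9%) and 16 WT-only peaks (15.0%), again below the 23.5% and 27.1% of all peaks. The median over their 89 pairs was 0.00. Fn1, which encodes fibronectin, had 4 peaks in Tle4cKO alone and 0 in WT alone. Cdh1, Jam2 and Vtn each had 3 more peaks in WT alone than in Tle4cKO alone.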

How the data were processed

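The authors deposited 1 peak list per library with the position, width, summit and pileup of each peak, which is a whole-number signal with a lowest value of 7, per the file headers. HOMER 4.7.2, MACS2 2.1.1, Bowtie2 2.2.5, cutadapt 1.14, edgeR 3.28.1, featureCounts 1.5.0 and mm10 are named, without roles, per the submitters' processing notes. The sources used here give no threshold, transposase shift, duplicate handling or depth.

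Gene spans came from the RefSeq table of GRCm38.p6, which has neither exons nor introns. Peaks overlapping by at least 1 bp were shared. The overlap counts were checked with bedtools 2.31.1 and the steps tested on simulated data. The simulated list kept the WT peak positions and held planted changes at high pileup only. It therefore does not test how the steps handle shifted, split or weak peaks. Relative ratios used 50 bins of summed pileup. Shares and ratios have exact Clopper-Pearson intervals at 95%. No test was made. The 4 classes of pileup were set within each list. The coordinates given for a pair are those of its Tle4cKO peak.

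The members, lists and motifs were chosen with earlier results of these data known. Peaks printed were the highest, those at the start, the highest in 1 list and pairs past 1.5-fold, with further strong or neighbouring ones chosen after their values were seen. In other lists the 3 genes with the largest difference in peaks found in 1 list were named, with ties. Analyses used Python 3.11.15 and numpy 2.4.6.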

Additional observations from a re-analysis of the deposited data

How the results depend on the processing

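No paired analysis was possible because each genotype has 1 library. Of 41 alternative values for the set of genes, 27 stayed close to the value reported and 14 moved, and all 5 alternatives for the median relative log2 ratio stayed close to it. Flanks of 50 kb gave 225 Tle4cKO and 252 WT peaks. A minimum pileup of 20 left 86 Tle4cKO peaks, and the shares found in 1 list were 5.81% in Tle4cKO and 12.7% in WT. With at least 15 the WT-only share was 14.05%. When sharing needed 50% of both peaks, the shares were 31.5% in Tle4cKO and 38.8% in WT. The shares of all peaks under these rules were not worked out. Those given above, 23.5% in Tle4cKO and 27.1% in WT, hold for an overlap of 1 bp without a minimum pileup. With ratios relative to all pairs, 6 pairs were at least 1.5-fold higher in Tle4cKO. With at least 20 in both lists there was 1 such pair and 0 lower pairs, median widths were 838 bp in Tle4cKO and 866 bp in WT, and summits lay 35 bp apart. A higher minimum keeps fewer and higher peaks by construction, and the cause was not tested otherwise. For single genes, 84 of 110 alternative values stayed close, and the 26 that moved were all counts of peaks found in 1 list. No median moved by this rule, but the intervals of single genes are wide (-0.35 to 0.88 at Itga4). A median could therefore change sign and still be called close. The median relative log2 ratio took the other sign under at least 1 alternative at Itgam (down to -0.02), Itgax (-0.08), Itgal (up to 0.17), Itgb5 (down to -0.03) and Itgb7 (up to 0.17). Weak peaks limit every statement on single sites, and the depth is unknown.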
